A study of Mus musculus with 27 samples.

Results

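The genes described here are 9 that serve de novo lipogenesis, the making of fatty acids and glycerolipid from glucose carbon in the liver: the regulators Srebf1 and Thrsp and the enzymes Pklr, Acly, Me1, Fasn, Acaca, Scd1 and Gpam. They were taken by symbol through the array annotation, which gave 11 probe sets for 8 of the 9 genes among the 12488 probe sets of the value table. No probe set was named Acaca in the annotation used, and that gene was not analysed here. RNA from 27 mouse livers, 1 liver and 1 mouse per Affymetrix array, had been labelled in 3 groups of 9: Dex, Veh and Con. The labels do not spell out these names, and the sources used here do not give the strain, sex, age, dose or time. All 3 groups are whole liver, so fewer cells of a type and less RNA per cell cannot be told apart in any value below.

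In lipogenesis, glycolysis delivers pyruvate to the mitochondria, citrate carries the carbon back to the cytosol, and ATP citrate lyase splits it to acetyl-CoA. Acetyl-CoA carboxylase and fatty acid synthase then build palmitate with NADPH as reductant, stearoyl-CoA desaturase puts in a double bond, and glycerol-3-phosphate acyltransferase places the chain on a glycerol backbone. In liver the pathway is known to follow feeding, under insulin through the transcription factor SREBP-1c and under glucose through the factor ChREBP.

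The start regions of Fasn and of the 3 genes whose level followed it most closely from mouse to mouse, Acly, Gpam and Pklr, are shown because those 4 genes carry the clearest pattern below. Each run is 1 RefSeq window on GRCm38.p6, 250 bases before to 50 bases after an annotated transcript start, read 5′ to 3′ on the strand of the gene. Fasn is shown at chr11:120824498-120824797 (minus strand), Acly at chr11:100527951-100528250 (minus), Gpam at chr19:55127189-55127488 (minus) and Pklr at chr3:89136373-89136672 (plus). Capitals mark every match, on either strand, to the motifs searched.
Fasn: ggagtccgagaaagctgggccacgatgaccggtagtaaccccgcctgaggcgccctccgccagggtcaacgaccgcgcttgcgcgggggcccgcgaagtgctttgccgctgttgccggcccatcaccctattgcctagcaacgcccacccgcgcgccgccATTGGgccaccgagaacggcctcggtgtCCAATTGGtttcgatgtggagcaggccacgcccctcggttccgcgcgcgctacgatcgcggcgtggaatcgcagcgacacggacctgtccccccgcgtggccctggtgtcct
Acly: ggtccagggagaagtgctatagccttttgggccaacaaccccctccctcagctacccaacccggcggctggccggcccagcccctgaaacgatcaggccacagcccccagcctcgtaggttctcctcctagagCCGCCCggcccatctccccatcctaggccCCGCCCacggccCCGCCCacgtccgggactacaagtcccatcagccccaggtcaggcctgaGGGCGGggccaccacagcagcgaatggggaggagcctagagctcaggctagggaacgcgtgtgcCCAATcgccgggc
Gpam: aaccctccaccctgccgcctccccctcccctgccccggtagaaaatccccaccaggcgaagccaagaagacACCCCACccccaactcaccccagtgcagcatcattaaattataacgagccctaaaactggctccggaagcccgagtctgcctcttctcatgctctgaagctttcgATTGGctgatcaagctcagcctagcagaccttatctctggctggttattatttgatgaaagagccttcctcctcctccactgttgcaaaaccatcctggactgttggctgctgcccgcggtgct
Pklr: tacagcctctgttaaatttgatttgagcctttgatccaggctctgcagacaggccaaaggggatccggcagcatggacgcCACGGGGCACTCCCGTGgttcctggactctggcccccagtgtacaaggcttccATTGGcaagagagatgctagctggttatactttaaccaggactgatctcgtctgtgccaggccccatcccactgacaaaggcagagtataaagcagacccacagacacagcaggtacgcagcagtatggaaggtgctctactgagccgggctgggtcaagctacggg
The motifs were the CCAAT box (CCAAT, bound by NF-Y), the Sp1 box (GGGCGG), the E box (CACGTG, bound by USF factors), a paired E box (CACGNG, then 5 bases of any kind, then CNCGTG, the form of a carbohydrate response element) and the core of the sterol regulatory element of the LDL receptor gene (ACCCCAC). The core was searched after the whole element had matched in none of these genes' windows. The Fasn window held 3 CCAAT matches, 2 of which overlap on opposite strands in the run CCAATTGG. Acly held 4 Sp1 matches and 1 CCAAT match, Gpam 1 CCAAT match and 1 sterol element core, and Pklr 1 CCAAT match and the paired E box, whose first base lies at -170 from the start. In all 32851 mouse windows of this length, CCAAT was found in 37.4%, GGGCGG in 35.7%, CACGTG in 7.15%, the paired E box in 0.0457% and the sterol element core in 6.21%. The 13 windows of the lipogenic genes, which cover 8 of the 9 genes and not Scd1, held CCAAT in 8, GGGCGG in 5, the paired E box in 1, the sterol element core in 2 and the E box in 0. These matches describe the letters of the windows and were not tested as binding sites.

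The arrays came scaled to a common trimmed mean of 100.1 to 100.2 intensity units, with array medians of 17.6 to 33.3 and Spearman correlations between arrays of 0.833 to 0.938. The liver label fitted its markers: all 7 hepatocyte markers with a probe set were above the array median on all 27 arrays, with a summed intensity of 53217.2 to 120627.5 in Dex, 50348.4 to 95631.4 in Veh and 45953.5 to 83135.4 in Con. Of 8 adipocyte markers with a probe set, the fat-cell hormone genes Adipoq and Retn exceeded the array median on 3 and 0 of 27 arrays and the fatty acid binding protein gene Fabp4 on 1, while the probe set of Lep, the leptin gene, did so on 27, that of Lipe on 17 and that of Lpl on 12. The adipocyte list summed to 1008.5 to 7426.6 in Dex, 5931.4 to 9683.1 in Veh and 4427.2 to 7856.9 in Con, most of it from Car3 and Adipor2, which hepatocytes also express. Macrophage markers summed to 356.5 to 898.4 in Dex, 494 to 1567.2 in Veh and 560.8 to 1144.3 in Con. In Dex against Con 3 of the 8 macrophage markers tested were lower, Cd5l (-0.99, limma adjusted p = 0.0172), Ctss (-0.95, 0.0338) and Mrc1 (-0.90, 0.0162), beside 13.2% of all probe sets called lower. In the same comparison 3 of the 7 hepatocyte markers were higher, Alb (0.61, limma adjusted p = 0.0276), Apoa1 (0.67, 0.0234) and Cps1 (0.75, 0.00606), beside 3.26% of all probe sets called higher. None of either list passed in Dex against Veh or Veh against Con, and the part of these shifts in the results below was not tested. The beta-actin 3′ to 5′ log2 ratio, a measure of RNA integrity, was 0.89 ± 0.17 in Dex, 1.27 ± 0.32 in Veh and 0.95 ± 0.24 in Con (SD, n = 9 each). Its part in the comparisons below was examined only as a covariate.

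The Dex mice were not alike. Dex 1, Dex 2 and Dex 3 had 2951.2, 2211.4 and 1914.2 units of Fkbp5, a glucocorticoid receptor target, against 58.7 to 161.8 in the other 6 Dex mice, 33.2 to 247.7 in Veh and 43.2 to 280.2 in Con. Tat, the tyrosine-degrading enzyme gene and another such target, was 15751.5, 15297.7 and 11599.6 in those 3 mice, against 2979.2 to 5645.1 in the other Dex mice. These genes were chosen as description after earlier results had been seen, and the labels do not say whether the numbers mark a time, a dose or a batch. The Dex against Veh value of each lipogenic gene is therefore also given without Dex 1 to 3. The share of all probe sets on which these mice stand apart from the other Dex mice was not computed.

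None of the 8 lipogenic genes passed the threshold in any of the 3 comparisons (limma, Benjamini-Hochberg adjusted p under 0.05 over 6784 probe sets). In Dex against Veh, 0 of 8 passed, where 0.265% of all probe sets did, and 0 of 8 had an unadjusted p under 0.05, where 15.2% did. In Veh against Con, 0 of 8 passed beside 3.86% of all probe sets, and 1 of 8, Fasn, was under 0.05 unadjusted beside 23.6%. In Dex against Con, 0 of 8 passed beside 16.4%, and 1 of 8, again Fasn, was under 0.05 unadjusted beside 31.5%. The median fitted log2 change of the 8 genes was -0.26 in Dex against Veh, 0.42 in Veh against Con and 0.30 in Dex against Con, where the medians of all probe sets were -0.03, -0.19 and -0.20. The fitted value was above 0 for 2, 8 and 6 of the 8 genes, against 46.6%, 30.1% and 32.6% of all probe sets. With quantile normalization the all-probe medians were -0.04, -0.02 and -0.04, and Me1 and Thrsp then lay at -0.05 and -0.03 in Veh against Con, below 0.

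**Figure D1:**
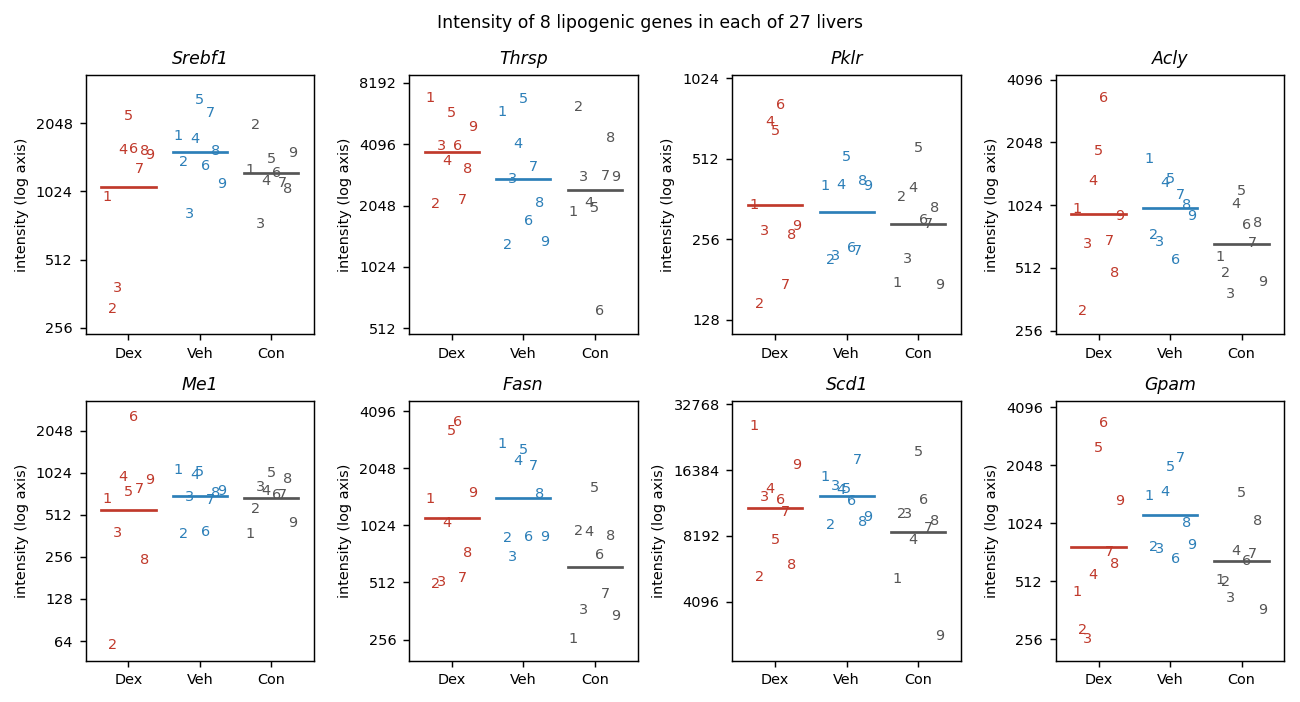
Intensity of 8 lipogenic genes (log axis) in each of the 27 livers, by group; each digit is the mouse number and the bar is the group mean on the log scale. The groups overlap for every gene, and Dex spans the widest range for Me1, from 60.1 in Dex 2 to 2570.2 in Dex 6.

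**Figure D2:**
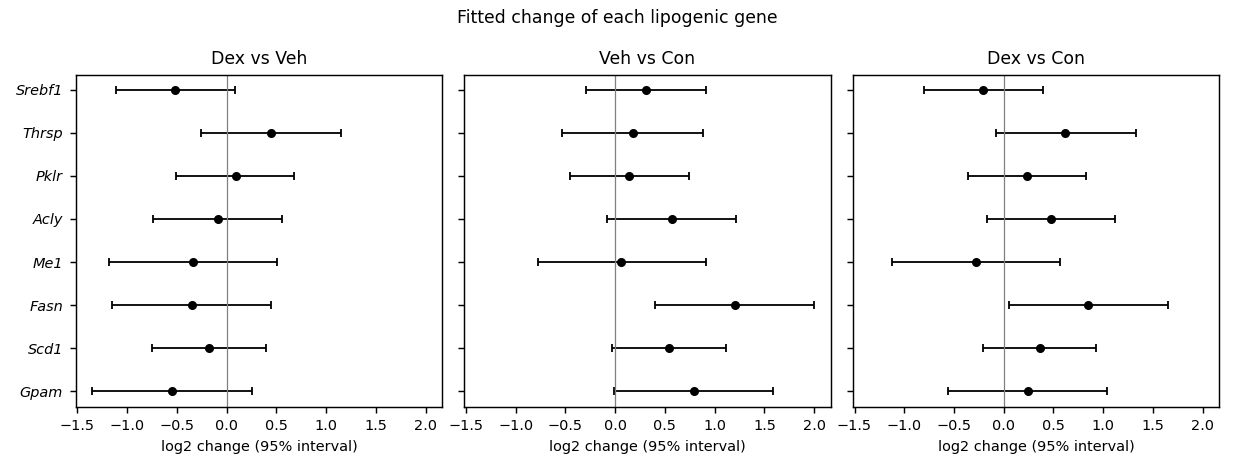
Fitted log2 change of each lipogenic gene with its 95% interval in the 3 comparisons, 9 livers a group. Only the intervals of Fasn in Veh against Con (0.40 to 2.0) and in Dex against Con (0.05 to 1.65) do not reach 0, before adjustment over all probe sets.

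Srebf1 encodes SREBP-1, the transcription factor that drives many of the other genes. Its intensity had a lowest, median and highest value of 311.6, 1486.9 and 2188.1 in Dex, 809.8, 1537.9 and 2576 in Veh and 736.8, 1227.4 and 2016.6 in Con. The groups overlapped, and the low end of Dex was set by Dex 1 to 3, at 968.8, 311.6 and 382.6, against 1287.8 to 2188.1 in the other Dex mice. The log2 change was -0.52 ± 0.29 in Dex against Veh (SE, limma adjusted p = 0.396), 0.31 ± 0.29 in Veh against Con (0.529) and -0.21 ± 0.29 in Dex against Con (0.661). Without Dex 1 to 3 it was 0.05 in Dex against Veh and 0.36 in Dex against Con, neither past the threshold.

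Thrsp encodes Spot 14, a small nuclear protein induced by thyroid hormone and carbohydrate that promotes lipogenesis. It ran at 2082.9, 3991.4 and 6902.6 units (lowest, median, highest) in Dex, 1314.5, 2777.6 and 6783 in Veh and 621.8, 2818.9 and 6233.7 in Con. The highest values of the 3 groups lay close together, and the lowest mouse of all 27 was Con 6. The fitted change was 0.45 ± 0.35 in Dex against Veh (limma adjusted p = 0.538), 0.18 ± 0.35 in Veh against Con (0.779) and 0.62 ± 0.35 in Dex against Con (0.215). In Dex against Veh it was 0.43 without Dex 1 to 3 and -0.03 with the beta-actin ratio in the model.

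Pklr encodes liver pyruvate kinase, which makes pyruvate in the last step of glycolysis. Its brighter probe set read 146.3, 285.4 and 812.4 in Dex, 214.3, 405.9 and 517.6 in Veh and 172.5, 302.4 and 560.4 in Con. Dex held both the lowest mouse, Dex 2, and the highest, Dex 6, so that the Dex range enclosed those of Veh and Con. The fitted change was 0.09 ± 0.29 in Dex against Veh (limma adjusted p = 0.907), 0.14 ± 0.29 in Veh against Con (0.789) and 0.23 ± 0.29 in Dex against Con (0.622). A second, dimmer probe set, of a type that may share sequence with other transcripts, gave 0.43, -0.38 and 0.05, so the 2 differed in sign in Veh against Con. The brighter one gave 0.35 in Dex against Veh and 0.49 in Dex against Con without Dex 1 to 3.

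Acly encodes ATP citrate lyase, the source of cytosolic acetyl-CoA. Its levels were 319.6, 905.3 and 3332.2 in Dex, 556.8, 1030.3 and 1709.2 in Veh and 385, 672.6 and 1198.5 in Con. In 8 of 9 Veh mice Acly lay above the Con median, while Dex again enclosed the other ranges, with Dex 2 lowest and Dex 6 highest of all 27. The log2 change was -0.09 ± 0.32 in Dex against Veh (limma adjusted p = 0.913), 0.57 ± 0.32 in Veh against Con (0.276) and 0.47 ± 0.32 in Dex against Con (0.310). The first of these was 0.23 and the last 0.80 without Dex 1 to 3, neither past the threshold.

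Me1 encodes cytosolic malic enzyme, which turns malate to pyruvate and yields NADPH. Its intensity was 60.1, 749.7 and 2570.2 in Dex, 373.1, 737.3 and 1060.9 in Veh and 370.1, 714.3 and 1014.4 in Con. The medians lay close together and only the width differed: the SD of log2 intensity was 1.52 in Dex, a value that 1.37% of tested probe sets reached in that group, against 0.56 in Veh and 0.48 in Con. Dex was also the widest group over all tested probe sets, with a median SD of 0.566 against 0.469 in Veh and 0.375 in Con. The difference in Me1 spread was not tested. The fitted change was -0.34 ± 0.41 in Dex against Veh (limma adjusted p = 0.719), 0.06 ± 0.41 in Veh against Con (0.944) and -0.28 ± 0.41 in Dex against Con (0.680). Without Dex 1 to 3 the Dex values were 0.24 against Veh and 0.30 against Con.

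Fasn encodes fatty acid synthase, the multi-domain enzyme that assembles palmitate. Its intensity was 505.4, 1058.5 and 3565.4 in Dex, 697.5, 1490.7 and 2761.5 in Veh and 257.4, 712.6 and 1619.7 in Con. In 8 of 9 Veh mice it exceeded the Con median, as it did in 6 of 9 Dex mice, yet the ranges of all 3 groups overlapped. Inside Veh, mice 1, 4, 5 and 7 read 2761.5, 2247.1, 2549.5 and 2100.7, while mice 2, 3, 6 and 9 read 879.5, 697.5, 885.3 and 886.7. Veh 8 lay between them at 1490.7. In Dex, mice 5 and 6 stood at 3233.7 and 3565.4, and mice 2, 3 and 7 at 505.4, 515 and 539.9. Dex 1, 4, 8 and 9 lay between them at 1414.6, 1058.5, 732.5 and 1508.9.

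The fitted Fasn change was 1.2 ± 0.39 in Veh against Con, a 2.3-fold higher level with a 95% interval of 0.40 to 2.0 on the log2 scale (limma, unadjusted p = 0.00464, adjusted p = 0.0723). That value misses the threshold and lies near it: leaving out 1 array at a time gave changes of 1.04 to 1.37 and limma adjusted p-values of 0.0428 to 0.141, under 0.05 without Con 5 (0.0428), Veh 3 (0.0496) or Veh 9 (0.0457). Quantile normalization gave 1.10 (limma adjusted p = 0.180). Leaving out Veh 2, 4, 5 and 7, which earlier results had set apart, gave 0.93 (limma adjusted p = 0.587). Of these, Veh 4, 5 and 7 are among the mice with high Fasn named above. Calls over all probe sets fell from 262 to 3 without those mice. The limma adjusted p of Fasn was under 0.05 with the replicate number as a block (0.0443), in a model without Dex (0.0302) and with array weights (change 1.32, 0.012). With the beta-actin ratio in the model the change was 1.38 (limma adjusted p = 0.147), and with the Gapdh ratio 1.38 (0.0822). In Dex against Con the Fasn change was 0.85 ± 0.39 (limma adjusted p = 0.135), and in Dex against Veh -0.35 ± 0.39 (0.689), or 1.17 (0.0851) and -0.03 (0.987) without Dex 1 to 3.

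Scd1 encodes stearoyl-CoA desaturase, which makes oleate from stearate. The brightest of its 3 probe sets read 5310.3, 12023.4 and 26181.2 in Dex, 9212.9, 13306.7 and 18154.8 in Veh and 2855.1, 9583.2 and 19793.4 in Con. Veh was the narrowest group and lay wholly within the Con range, and Dex 1 was the highest of all 27. The log2 change was -0.18 ± 0.28 in Dex against Veh (limma adjusted p = 0.790), 0.54 ± 0.28 in Veh against Con (0.244) and 0.36 ± 0.28 in Dex against Con (0.387). The second bright probe set gave -0.12, 0.43 and 0.32, and the dimmest, above the array median on only 17 of 27 arrays, gave 0.51, -0.11 and 0.40. Without Dex 1 to 3 the brightest gave -0.24 in Dex against Veh.

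Gpam encodes mitochondrial glycerol-3-phosphate acyltransferase, the first step of glycerolipid assembly. Its intensity was 257, 631.3 and 3403.6 in Dex, 668.5, 1031.6 and 2235.8 in Veh and 364.4, 649.1 and 1472.8 in Con. The Con median was exceeded in 9 of 9 Veh mice, and Dex 1 to 3, at 452.3, 286.6 and 257, lay below every other Dex mouse, which read 552.4 to 3403.6. Neither pattern was set against its share over all probe sets. The fitted change was -0.55 ± 0.39 in Dex against Veh (limma adjusted p = 0.502), 0.79 ± 0.39 in Veh against Con (0.216) and 0.24 ± 0.39 in Dex against Con (0.707). Leaving out Dex 1 to 3 gave 0.08 in Dex against Veh and 0.87 in Dex against Con, again short of the threshold.

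Individual mice were high or low for most of the genes at once. Dex 6 was the highest of all 27 mice for 5 of the 8 genes (Me1, Pklr, Gpam, Acly and Fasn) and above its group mean for 8 of 8. Dex 2 was the lowest of the 27 for 4 (Me1, Pklr, Acly and Srebf1) and below its group mean for 8 of 8. In Veh, mice 1, 4 and 5 were above the group mean for 8 of 8 genes and mice 2 and 6 below it for 8 of 8. Con 5 was the highest Con mouse for 6 of 8. How often these mice were extreme over all probe sets was not computed. The counts therefore do not show a trait particular to the lipogenic genes.

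**Figure D3:**
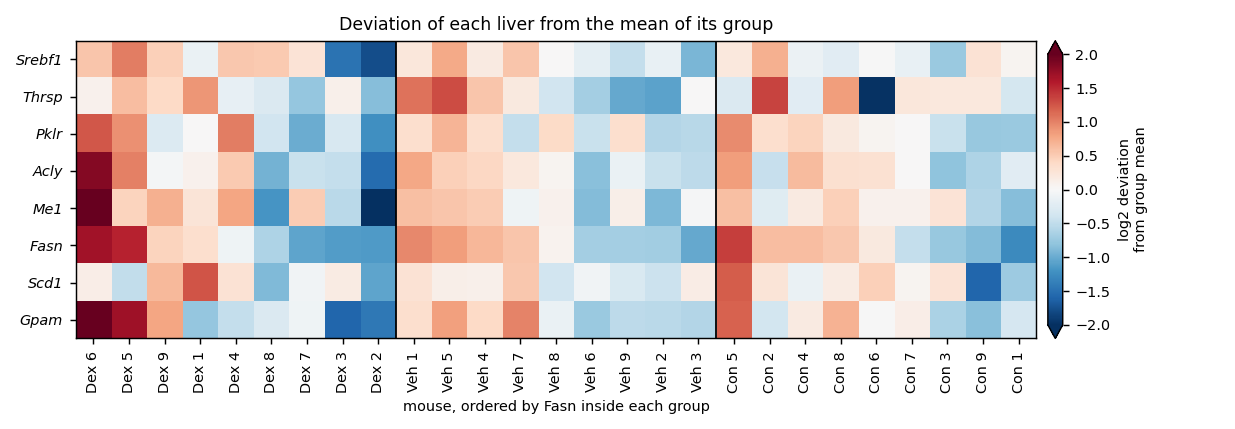
Log2 deviation of each liver from the mean of its own group for the 8 lipogenic genes, mice ordered by Fasn inside Dex, Veh and Con; colours stop at 2 in either direction. Acly, Gpam and Pklr follow the order of Fasn most closely, with r of 0.84, 0.84 and 0.81 over all mice, against 0.48 for Scd1 and 0.46 for Thrsp.

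The joint variation was measured against Fasn, as the correlation of deviations from group means over 27 mice, with p from permutation within groups and adjusted over the 5199 other genes tested. Of those genes, 5 passed (0.0962%), all with positive r: Acly, Gpam and Pklr among the lipogenic genes, and Elovl6 and Aqp8 outside them. For Acly, r was 0.84 and rho 0.82 (permutation p = 1e-05, the smallest the draws can give, adjusted p = 0.0173). Gpam had r = 0.84 and rho = 0.80, and Pklr r = 0.81 and rho = 0.81, each with the same permutation and adjusted p for r. These were the 3 highest r of all 5199 genes, whose median was -0.06 with a 5th to 95th percentile of -0.41 to 0.35. Each gene entered by its brightest tested probe set, so the dimmer probe set of Pklr was left out of the correlations.

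The other 4 genes had lower r and did not pass. Me1 had r = 0.65 and rho = 0.63 (permutation p = 0.00035, adjusted 0.162), and Srebf1 r = 0.62 and rho = 0.60 (permutation p = 0.0017, adjusted 0.199). Scd1 had r = 0.48 and rho = 0.41 (permutation p = 0.0196, adjusted 0.425), and Thrsp r = 0.46 and rho = 0.52 (permutation p = 0.0148, adjusted 0.412). They ranked 11, 17, 84 and 101 among the 5199 genes, in the order Me1, Srebf1, Scd1 and Thrsp.

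Within the groups of 9, given as description, Acly had r of 0.89 in Dex, 0.92 in Veh and 0.73 in Con, and Gpam 0.88, 0.90 and 0.77. Pklr had 0.82, 0.61 and 0.96. Srebf1 had 0.67 in Dex, 0.88 in Veh and 0.30 in Con, and Thrsp 0.67, 0.83 and 0.05, so that these regulators tracked Fasn least in Con, a difference between groups that was not tested. Scd1 ran the other way, at 0.28, 0.55 and 0.73. Dex 5 and Dex 6 were the 2 mice farthest from the Fasn median. Without them r was 0.77 for Acly, 0.75 for Gpam and 0.73 for Pklr over 25 mice. The adjusted permutation p was 0.0728 for each, past the threshold no longer. Before adjustment the permutation p was 1e-05 for Acly, 5e-05 for Gpam and 8e-05 for Pklr. The Acly value is the smallest the draws can give, so the number of draws limits its adjusted p. The same 2 mice left out gave 0.55 for Me1, 0.54 for Srebf1, 0.65 for Scd1 and 0.47 for Thrsp. None of 24 relations of the beta-actin ratio, the Gapdh ratio and the array median with the 8 genes passed (lowest adjusted permutation p = 0.804).

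**Figure D4:**
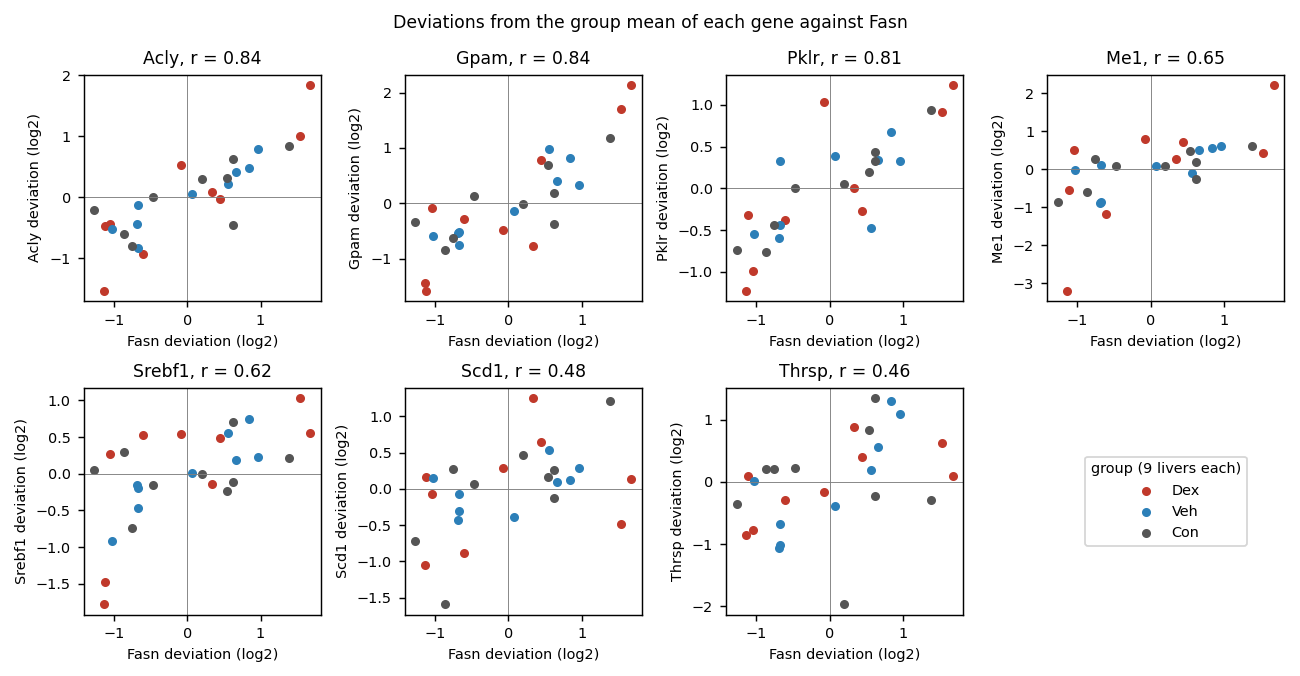
Log2 deviation from the group mean of 7 lipogenic genes against that of Fasn, 1 point per liver, with r over the 27 livers. Acly and Gpam (r = 0.84 each) lie closest to a line, and Dex 2 lies far below the others for Me1.

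Among genes outside the list, the 5 with the highest r to Fasn were Elovl6 at 0.77, Lss and Aqp8 at 0.74, Septin9 at 0.68 and Tuba1c at 0.67. Elovl6 elongates palmitate to stearate, the step after Fasn, Lss makes lanosterol in cholesterol synthesis, and Aqp8 is a water channel. The adjusted permutation p was 0.0208 for Elovl6 and for Aqp8, and 0.0809 for Lss. The Tuba1c probe set is of a type that may also read related tubulin genes.

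Genes around the pathway were counted by lists of regulators, carbon supply, NADPH supply, elongation and desaturation, and triglyceride assembly, with 7, 6, 6, 10 and 10 genes tested. In Dex against Veh 1 of these 39 genes passed, the regulator Usf1, an E-box factor, which was higher. Of all probe sets 0.0442% were called higher and 0.221% lower. Usf1 read 187.8, 290.8 and 453.9 (lowest, median, highest) in Dex and 115.5, 167.3 and 207.3 in Veh, and rose by 0.86 ± 0.16 (limma adjusted p = 0.0226), with 9 of 9 Dex mice above the Veh median. Its second probe set gave 0.33 (limma adjusted p = 0.514), and without Dex 1 to 3 the first gave 0.84 (0.0816). The call was also lost with the replicate block and with the beta-actin ratio in the model. Of the lists with no call, the gene with the smallest p was Pdk4, which restrains pyruvate dehydrogenase (-0.67 ± 0.32), Idh1, an NADPH source (-0.21 ± 0.16), the elongase Elovl5 (-0.69 ± 0.25) and the acyl-CoA synthetase Acsl5 (-0.66 ± 0.26). Leaving out Dex 1 to 3 gave -0.52, -0.03, -0.59 and -0.37 for these 4 genes in the same order.

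In Veh against Con, 2 of the 39 passed, both lower, beside 2.67% of all probe sets called lower and 1.19% called higher. Elovl2, an elongase of polyunsaturated chains, read 50.6, 116.5 and 469.1 in Veh and 288.7, 451.5 and 743.4 in Con, and fell by 1.71 on the log2 scale (SE 0.40, limma adjusted p = 0.0196), from a probe set chosen under relaxed design rules. Agpat1, which adds the second acyl chain to glycerol phosphate, fell by 0.62 (SE 0.17, limma adjusted p = 0.038). With quantile normalization its log2 change was -0.35 (limma adjusted p = 0.237). Both calls were lost with either RNA ratio in the model and without Veh 2, 4, 5 and 7. Elovl6 read 217.9, 266.9 and 840.5 in Veh and 55.1, 95.7 and 170.1 in Con. No Veh mouse overlapped the Con mice for Elovl6, though the share of all probe sets that separate so is not given here. The fitted change was 1.69 ± 0.51 (limma adjusted p = 0.0558), with a second probe set at 1.24 (0.111). The smallest p of the other lists belonged to the factor Onecut1 (-0.74 ± 0.29), Pdha1, a pyruvate dehydrogenase subunit (-0.28 ± 0.16), and Idh1 (-0.31 ± 0.16).

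In Dex against Con, where the macrophage and hepatocyte markers named above also moved, 5 of the 39 passed, 2 higher and 3 lower, beside 3.26% of all probe sets called higher and 13.2% called lower. Usf1 rose by 0.71 ± 0.16 (limma adjusted p = 0.00509), although its second probe set gave 0.00. Elovl6 rose by 1.59 ± 0.51 (limma adjusted p = 0.0315), with Dex at 40.7, 416.9 and 2737.9 against 55.1, 95.7 and 170.1 in Con, and a second probe set at 1.09 (0.109). Elovl2 fell by 2.27 (SE 0.40, limma adjusted p = 0.000678). Idh1 fell by 0.53 (SE 0.16, limma adjusted p = 0.0284) and Mttp, which loads lipid onto apolipoprotein B, by 0.92 (SE 0.28, adjusted p = 0.0231), and these p-values became 0.182 and 0.128 without Dex 1 to 3. Without those mice Elovl6 stood at 2.13 (limma adjusted p = 0.0104) and Elovl2 at -1.90 (0.0113). The carbon supply list had no call, its smallest p being that of the glucose transporter Slc2a2 (-0.36 ± 0.21).

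**Figure D5:**
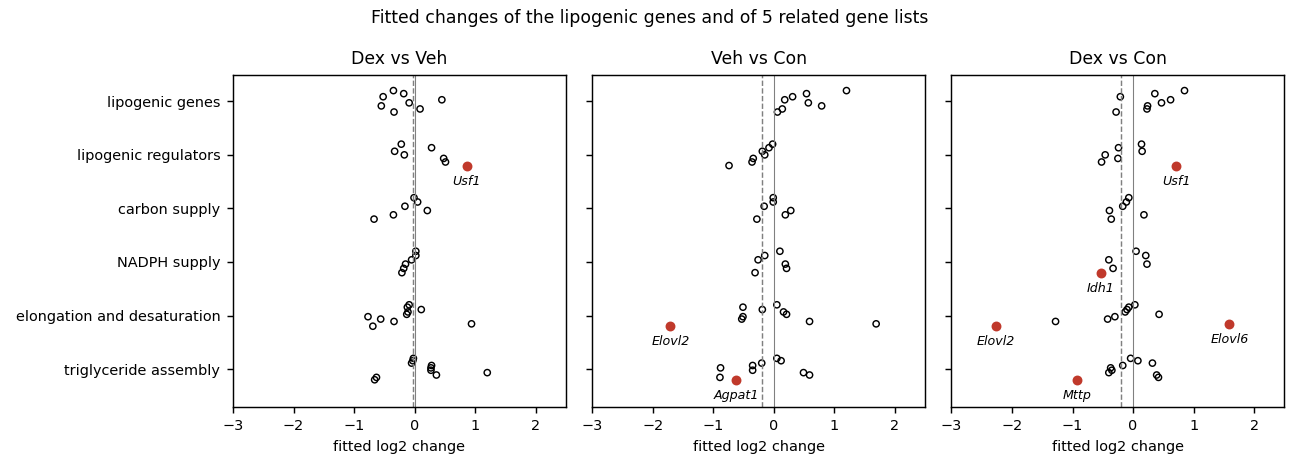
Fitted log2 change of each lipogenic gene and of each tested gene of 5 related lists in the 3 comparisons; filled red points passed the limma threshold and are named, the dashed line is the median of all probe sets. The named points number 1 in Dex against Veh, 2 in Veh against Con and 5 in Dex against Con, and none is among the 8 lipogenic genes.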

How the data were processed

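The authors deposited 1 linear intensity per Affymetrix probe set and array. Per the labels' protocols RNA was extracted with Trizol and RNeasy columns and checked on a Bioanalyzer; the sources used here do not name the summarising software. Arrays carry no read depth, and their number limits the precision. Annotation gave 10855 probe sets 1 symbol, 396 several and 1237 none. Intensities were floored at 2.6 (percentile 10 of positive values) and taken to log2. After 66 control probe sets were left out, 6784 above the array median on at least 9 of 27 arrays were tested, covering 5200 genes. A gene stands on its brightest tested probe set, and all probe sets of the lipogenic genes are given. Groups were compared with limma 3.58.1 in R 4.3.3 (lmFit and eBayes with a mean trend, all 27 arrays, 24 residual degrees of freedom, two-sided, Benjamini-Hochberg). On data simulated for Dex against Veh the fit recovered known changes. Correlations used Python 3.11.15, numpy 2.4.6, scipy 1.17.1 and 100000 permutations within groups. Their planned adjustment covered the 7 relations with Fasn alone and all 7 passed; after that result had been seen it was replaced by adjustment over all genes, under which 3 of 7 pass. Promoter windows came from RefSeq; the window with most matches was shown for each gene.

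The genes, lists and alternatives were chosen with earlier results of these data known. Named beside the lipogenic genes are, per list and comparison, up to 4 genes past the threshold or else the one with the smallest p, and the 5 genes most correlated with Fasn. Replicate numbers were not taken to pair the mice, since not every same-numbered pair correlated above 0.1. Alternatives were quantile normalization, other floors and filters, a replicate block, RNA ratio covariates, fits of only 2 groups, no mean trend, array weights, other probes, and arrays left out.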

Additional observations from a re-analysis of the deposited data

How the results depend on the processing

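The number of lipogenic genes past the threshold was 0 in Dex against Veh and Dex against Con under every alternative run. In Veh against Con it was 1, Fasn, with the replicate block (adjusted p = 0.0443), when Dex was left out of the model (0.0302) and with array weights (change 1.32, 0.012), and 0 to 1 with 1 array left out (limma). The replicate block changed no other call of a lipogenic gene. Same-numbered deviations correlated at -0.09 to 0.18 in Dex against Veh (3 of 9 pairs over 0.1, mean 0.05 against -0.01 for other numbers, 6 samples best with their own number), -0.20 to 0.08 in Veh against Con (0 of 9, 2 samples) and -0.18 to 0.19 in Dex against Con (1 of 9, 3 samples). The related lists, with 1 call in Dex against Veh, had 0 under the replicate block, beta-actin ratio, a fit limited to 2 groups, array weights, without Dex 1 to 3, without Veh 2, 4, 5 and 7, and with the dimmest probe. With 2 calls in Veh against Con they had 1 under quantile normalization and no filter, 4 under the block and without Dex 1 to 3, 0 with either RNA ratio and without Veh 2, 4, 5 and 7, 5 in the fit of 2 groups, 6 with array weights and 1 to 4 with 1 array left out (1 without Con 1, 3, 4, 6, 7 or 9 or Veh 2, 4, 5, 7 or 8, and 4 without Veh 9 or Dex 2). With 5 in Dex against Con they had 3 in the fit of 2 groups and with the dimmest probe, and 3 to 5 with 1 array left out (3 without Con 3, Con 6 or Dex 4), 4 with no filter and without Dex 1 to 3, and 6 with quantile normalization and with array weights. The cause of these shifts was not tested.

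Signs turned only for values that passed no threshold. Quantile normalization gave -0.05 for Me1 and -0.03 for Thrsp in Veh against Con. In Dex against Veh the beta-actin ratio gave -0.03 for Thrsp and -0.11 for Pklr, the Gapdh ratio -0.09 for Pklr, array weights 0.02 for Acly and leaving out Veh 2, 4, 5 and 7 0.04 for Acly (-0.02 for Thrsp in Veh against Con). Without Dex 1 to 3, Dex against Veh was 0.23 for Acly, 0.24 for Me1, 0.05 for Srebf1 and 0.08 for Gpam, and Dex against Con 0.30 for Me1 and 0.36 for Srebf1. The dimmest probe gave 0.51 for Scd1 in Dex against Veh, and -0.11 for Scd1 and -0.38 for Pklr in Veh against Con. With 1 array left out, Dex against Veh ran from -0.32 to 0.10 for Acly, -0.62 to 0.06 for Me1 and -0.07 to 0.24 for Pklr, Veh against Con from -0.05 to 0.17 for Me1 and -0.07 to 0.35 for Thrsp, and Dex against Con from -0.55 to 0.12 for Me1, -0.34 to 0.02 for Srebf1 and -0.03 to 0.44 for Gpam.

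Correlations with Fasn lost the adjusted permutation threshold without Dex 5 and Dex 6 (Acly 0.77, Gpam 0.75, Pklr 0.73) and, for Pklr, without Dex 1 to 3 (0.80, adjusted p = 0.0832). Without Dex 5 and Dex 6 the unadjusted permutation p of Acly stayed at 1e-05, the smallest the draws can give. The number of draws therefore limits its adjusted p. The planned adjustment over the 7 relations passed all 7, and the one reported was chosen after that was seen. Over all probe sets Veh against Con had 262 calls, 30.9% of them higher, and 85 under quantile normalization, 52.9% of them higher. Its calls fell to 3 without Veh 2, 4, 5 and 7 and rose to 1158 with array weights. Dex against Veh had 18 calls. Its calls fell to 1 without Dex 1 to 3, for example, and rose to 124 without Dex 6, 59 without Dex 8 and 58 without Dex 9.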
